A study of Homo sapiens with 2 samples.

Results

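The HMGA1 peaks on chromosomes 4, 13 and 18 were the 306 of 2352 listed peaks that lay on these 3 chromosomes, and they were chosen by chromosome alone. They made up 156 peaks on chromosome 4, 82 on chromosome 13 and 68 on chromosome 18. The other 19 autosomes held 1914 peaks and served as the comparison, while 131 peaks on X and 1 on Y were left aside. HMGA1 binding had been profiled by ChIP-seq, in which DNA bound to the protein is pulled down with an antibody and sequenced, in IMR90, a line of human diploid fibroblasts at population doublings 25 to 35 under 2% oxygen. RAS cells received a RAS retrovirus on days 1 and 2 and are described as senescent, and vector cells received the empty retrovirus on the same days and are described as growing. Both groups were selected with puromycin (1 µg/ml) from day 3 and harvested on day 12. Each group had 1 library, and the recovered depth was about 35400000 tags in RAS cells and about 34100000 in vector cells. The list named no library, so its title was used to take the library with the called peaks for RAS and the control for vector.

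HMGA1 is a small chromatin protein whose AT hooks insert into the minor groove of AT-rich DNA, where it bends DNA and helps other factors to bind. HMGA proteins are also known as structural parts of the dense heterochromatin foci that form in the nuclei of fibroblasts arrested by oncogenic RAS. Chromosomes 4, 13 and 18 are known as gene-poor and comparatively AT-rich, and chromosome 18 is a textbook case of a chromosome that lies near the nuclear edge. No base composition was measured here.

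The gene counts showed these chromosomes to be gene-poor. A RefSeq table of another build held 770 protein-coding genes on chromosome 4, 338 on chromosome 13 and 270 on chromosome 18. Divided by the span, that is the length between the outermost listed peaks of a chromosome, these counts gave 4.07, 3.68 and 3.55 genes per Mb, the lowest 3 values of the 22 autosomes. The other autosomes ranged from 5.08 on chromosome 8 to 30.9 on chromosome 19.

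Every listed peak had passed a fold of 4 over vector and a fold of 4 over its own surroundings, so a higher tag count in RAS is a property of the list and not a finding about these chromosomes. With 1 library per group there is no replicate error, and peaks of the same pair of libraries are not replicates. The values below are therefore given as a description, with no test, beside the same values for the other autosomes. SDs are over peaks, and intervals cover counting error only, which PCR copies without molecular identifiers may make larger than stated.

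By a lower bound on candidates per Mb, chromosomes 4, 13 and 18 ranked highest of all autosomes, and their density of listed peaks was ordinary. The peak identifiers carry a running number on each chromosome, and its highest value was read as a lower bound on the candidate peaks called there in the RAS library before the filters. That number was 20864 on chromosome 4, 10740 on chromosome 13 and 6697 on chromosome 18. Per Mb of span this came to 117 on chromosome 13, 110 on chromosome 4 and 88.0 on chromosome 18, which ranked 1st, 2nd and 3rd of the 22 autosomes. Chromosome 18 stood only just above chromosome 6, the next in order at 87.7 per Mb, whereas chromosomes 13 and 4 stood well clear of it. The lowest value was 20.7 per Mb, on chromosome 22. How far the bound falls short of the true number may differ between chromosomes, so this order is one of bounds.

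Listed peaks did not follow the same order. There were 0.825 listed peaks per Mb of span on chromosome 4 (exact 95% Poisson interval 0.700 to 0.965), 0.894 on chromosome 13 (0.711 to 1.11) and 0.894 on chromosome 18 (0.694 to 1.13). These ranked 11th, 7th and 6th of 22. Together the 3 chromosomes had 0.857 per Mb (0.764 to 0.959), and the other autosomes had 0.810 (0.774 to 0.847), so the intervals overlapped. Counting only peaks of 8-fold and above on the same spans, the order turned, at 0.0868 and 0.101 per Mb. Among peaks with at least 20 RAS tags the order was kept and the difference was larger, at 0.448 and 0.354 per Mb. There the span was taken between the outermost of those peaks. The 3 chromosomes held 13.8% of autosomal listed peaks (Wilson 95% interval 12.4% to 15.3%) on 13.1% of the autosomal span.

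Set against these lower bounds, the listed share was smaller on the 3 chromosomes. On the 3 chromosomes together, 306 peaks were listed for at least 38301 candidates, or 0.799% (Wilson 95% interval 0.715% to 0.893%). On the other autosomes the share was 1.18% (1.13% to 1.24%). Since the candidate numbers are lower bounds, both shares are upper bounds, and which true share is smaller was not settled. The intervals take the bounds as fixed. The shares were 0.748% on chromosome 4, 0.764% on chromosome 13 and 1.02% on chromosome 18, which ranked 21st, 20th and 18th of 22. Chromosome 21 had the lowest share, 0.643%, so a low share was not limited to these chromosomes.

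At a fixed score these chromosomes again lay high, though not in the same order. The findPeaks score, the value by which the peak caller ranks its candidates, was 20 at 15 listed peaks on chromosome 4, and their median running number was 7089, or 37.5 per Mb of span. On chromosome 13 the corresponding value was 35.6 per Mb (7 peaks), and on chromosome 18 it was 28.8 per Mb (9 peaks). These ranked 1st, 2nd and 4th of 22, and chromosome 21 ranked 3rd with 29.0. At a score of 18, where chromosome 21 had 0 listed peaks and no value, chromosomes 13, 4 and 18 had 62.0, 59.7 and 49.1 per Mb and ranked 1st to 3rd. At a score of 22, chromosome 4 ranked 1st with 22.2, chromosome 21 2nd with 20.4, chromosome 13 3rd with 20.3 and chromosome 18 4th with 16.4. The order thus differed between scores. Within a score the running number also rose along the chromosome. On chromosome 4 it went from 6155 at 354593 to 7963 at 188474126 among the 15 peaks of score 20. Each median therefore also depends on where its few listed peaks lie.

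**Figure D1:**
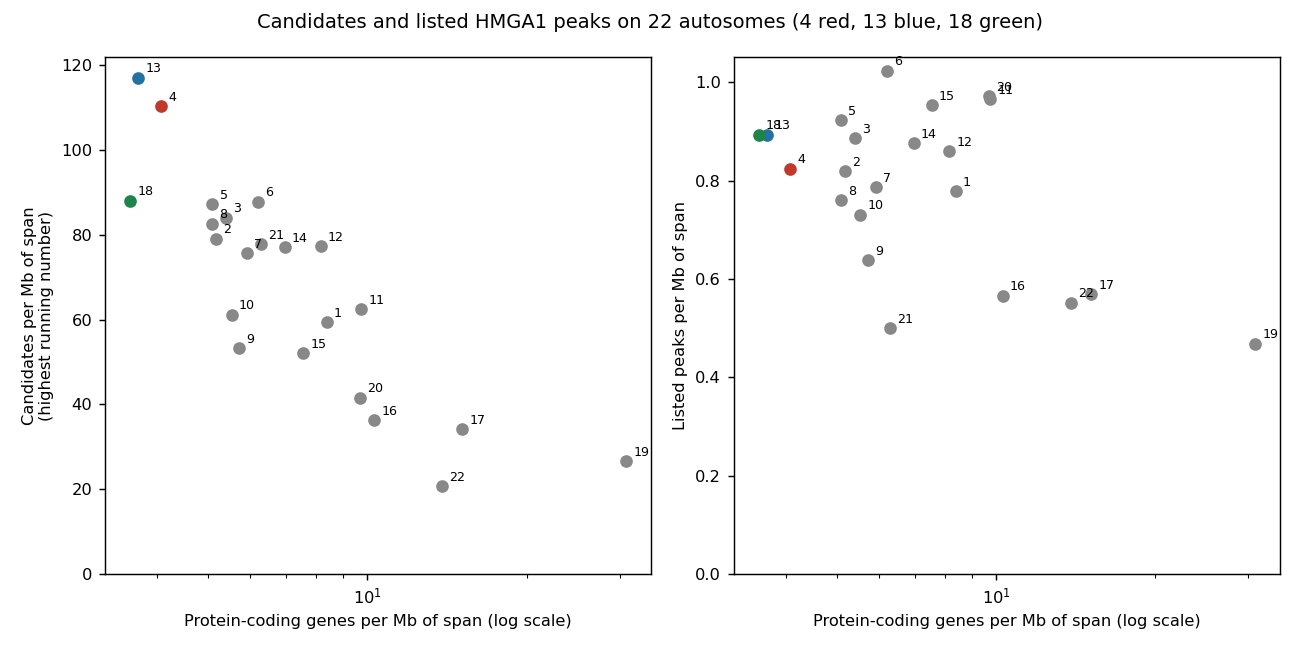
Candidates per Mb of span (left, from the highest running number) and listed peaks per Mb of span (right) against protein-coding genes per Mb of span on a log axis, with 1 point per autosome. Chromosomes 4, 13 and 18 lie farthest left in both panels, and they top the left panel at 110, 117 and 88.0 per Mb but lie among the other autosomes in the right panel.

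HMGA1 tags at the listed peaks were slightly more numerous on these chromosomes, mainly on chromosome 4. Peaks of chromosome 4 had 20.4 ± 3.81 RAS tags (mean ± SD, 156 peaks, range 13 to 35), the highest mean of the 22 autosomes. Chromosome 18 had 19.9 ± 3.41 (68 peaks, 15 to 30), which ranked 4th, and chromosome 13 had 19.6 ± 3.28 (82 peaks, 14 to 29), which ranked 10th. The medians were 20, 19 and 19 tags. Over the 3 chromosomes the mean was 20.1 ± 3.59, against 19.5 ± 3.60 on the other autosomes, a difference of 0.57 tags that is small beside the SD over peaks. Both sets had a median of 19 tags. The difference was 0.26 tags without chromosome 4, and -0.07 among peaks with at least 20 RAS tags. Among the other autosomes, chromosome means ran from 18.2 on chromosome 22 to 20.3 on chromosome 11.

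The classes below 20 RAS tags held smaller shares of peaks on these chromosomes, and the largest excess was at 20 to 22 tags. Peaks with 13 to 16 RAS tags made up 14.7% of those on the 3 chromosomes (45 peaks, Wilson 95% interval 11.2% to 19.1%) and 19.02% of those on the other autosomes (17.3% to 20.8%). Those with 17 to 19 tags made up 35.6% (109 peaks, 30.5% to 41.1%) against 39.6% (37.4% to 41.8%). Peaks with 20 to 22 tags made up 28.8% (88 peaks, 24.0% to 34.1%) against 22.8% (21.0% to 24.7%). At 23 to 25 tags the shares were nearly equal, 12.4% (38 peaks, 9.18% to 16.6%) and 12.3% (10.9% to 13.9%). For 26 tags or more the shares were 8.497% (26 peaks, 5.86% to 12.2%) and 6.32% (5.32% to 7.502%). In every class the intervals of the 2 sets overlapped.

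Vector tags showed the same small difference. Chromosome 18 had 3.81 ± 1.27 vector tags per peak and chromosome 4 had 3.81 ± 1.28, the highest and second highest means of the 22 autosomes. Chromosome 13 had 3.54 ± 1.15 and ranked 14th. The highest mean among the other autosomes was close, 3.79 on chromosome 14, and the lowest was 3.06 on chromosome 22. Over the 3 chromosomes the mean was 3.74 ± 1.25, against 3.59 ± 1.20 on the other autosomes, and 3.66 without chromosome 4. Among peaks with a fold of 8 or more the means were 1.65 in both sets. Peaks with 6 or more vector tags made up 7.19% (22 of 306, Wilson 95% interval 4.80% to 10.6%) against 4.55% (3.70% to 5.57%). By chromosome they were 12 on chromosome 4, 7 on chromosome 18 and 3 on chromosome 13. Most peaks of the 3 chromosomes had 3 (85 peaks), 4 (102 peaks) or 5 (54 peaks) vector tags, and 2 had 0.

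Because the list admits no peak under 4-fold, a peak with more RAS tags may carry more vector tags and still be listed, so both counts move together within it. The share of peaks with the most vector tags that the limit allows was 53.3% on the 3 chromosomes (163 peaks, Wilson 95% interval 47.7% to 58.8%) and 54.6% on the other autosomes (52.4% to 56.8%). It was 58.8% on chromosome 18, 53.8% on chromosome 4 and 47.6% on chromosome 13. When peaks were compared only with peaks of equal RAS tags, the difference in mean vector tags between the 3 chromosomes and the others fell from 0.15 to 0.03.

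**Figure D2:**
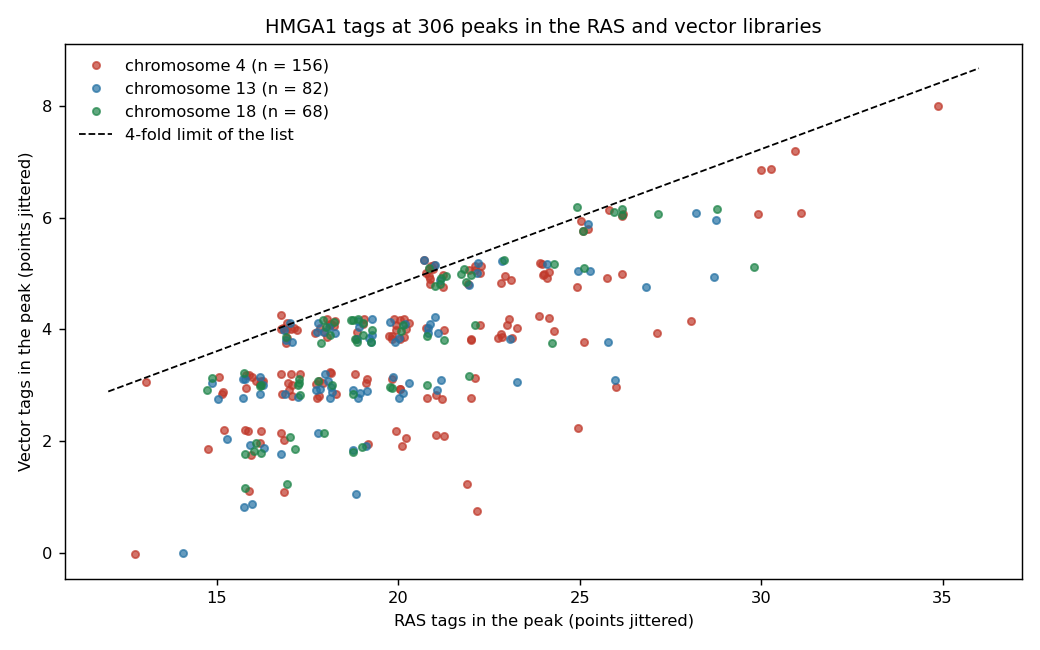
RAS tags against vector tags at the 306 peaks of chromosomes 4 (red), 13 (blue) and 18 (green), with 1 jittered point per peak and a dashed line at the 4-fold limit of the list. The 3 chromosomes overlap throughout, the points crowd below the line, and the 2 peaks with 0 vector tags lie at 13 and 14 RAS tags.

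The local background was also slightly higher, with chromosome 4 at the top. It was computed as the RAS tags scaled to the vector depth, divided by the authors' fold over the surroundings, and is in tags per peak width (366 bp). Chromosome 4 had 4.12 ± 0.90 (mean ± SD), the highest mean of 22. Chromosome 13 had 4.03 ± 0.79, the 4th, and chromosome 18 had 3.95 ± 0.97, the 9th. The highest mean among the other autosomes was 4.05 on chromosome 11 and the lowest 3.58 on chromosome 17. Medians were 4.01 on the 3 chromosomes (quartiles 3.48 and 4.64) and 3.80 on the others (3.36 and 4.40). Without chromosome 4 the median of the remaining 2 chromosomes was 3.90.

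Much of that difference went with the RAS tags. The limit of 4 on the local fold lets a peak with more tags have a higher background, and across the 306 peaks RAS tags and local background, which is computed from those tags, had a Spearman's rho of 0.72 (0.66 over the 1914 others). At 13 to 16 RAS tags the mean background was 3.20 on the 3 chromosomes and 3.21 on the others, and at 17 to 19 tags it was 3.70 and 3.62. It was 4.20 and 4.21 at 20 to 22 tags, 4.87 and 4.599 at 23 to 25 tags, and 5.41 and 5.42 at 26 or more. The 23 to 25 class (38 peaks on the 3 chromosomes) was the one where they stood highest over the others, by less than 1 SD over peaks (0.83). In peaks matched on RAS tags, the difference in the mean was 0.05 tags, against 0.15 unmatched.

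A few peaks stood over a much lower background than the rest. On chromosome 18, the peak at 12223567 to 12223933 (hg19) had 16 RAS tags over a background of 0.99, a fold over the surroundings of 15.6 in the authors' deposited table, and 3 vector tags. On chromosome 4, the peak at 70254372 to 70254738 had 16 RAS tags over 1.65, and that at 13547533 to 13547899 had 25 over 2.05, a local fold of 11.75 in the authors' deposited table. The first of these 3 peaks was the lowest in background of all 306, and it and the second were chosen after their values were seen. Peaks with a local fold of 6 or more were 9 of 68 on chromosome 18 (13.2%), 11 of 156 on chromosome 4 (7.05%) and 4 of 82 on chromosome 13 (4.88%), against 11.7% on the other autosomes. The Wilson intervals were wide, at 7.12% to 23.3%, 3.98% to 12.2% and 1.91% to 11.9%.

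**Figure D3:**
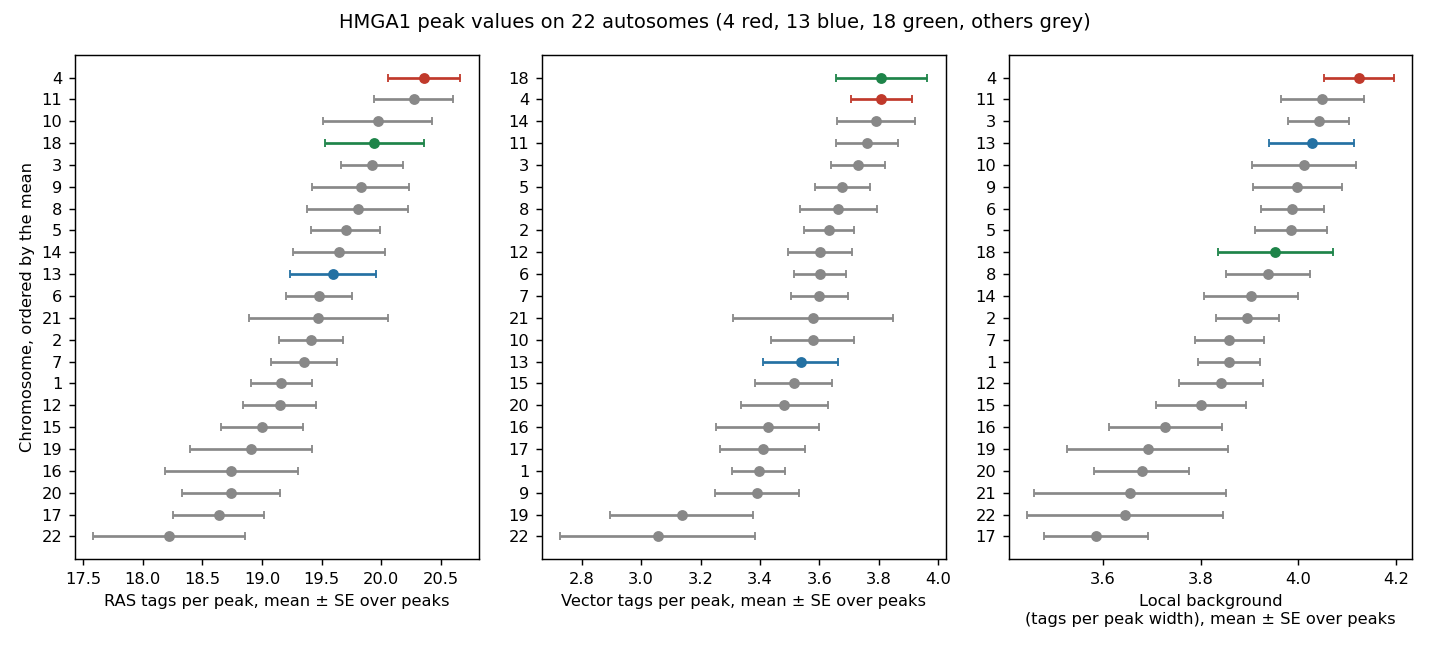
Mean RAS tags, vector tags and local background per peak (each ± SE over peaks) on the 22 autosomes, ordered by the mean in each panel. Chromosome 4 (red) has the highest RAS tags (20.4) and local background (4.12), chromosome 18 (green) the highest vector tags (3.81), and chromosome 13 (blue) lies between 4th and 14th.

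The fold of RAS over vector was no higher on these chromosomes. Its median in the authors' deposited table was 5.14 on chromosome 13, 4.90 on chromosome 4 and 4.82 on chromosome 18. Over the 3 chromosomes it was 5.01, and over the other autosomes 5.06. A fold of 8 or more was reached by 31 of the 306 peaks (10.1%, Wilson 95% interval 7.23% to 14.0%), while the background over all autosomal peaks was 12.2%. By chromosome these were 15 peaks on chromosome 4, 9 on chromosome 13 and 7 on chromosome 18. Of the tag ratios, 43 had an exact lower 95% limit of 2 or more, out of 306 (14.1%), against a background of 15.1%. Both shares lay near the background.

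The peaks with the highest folds were sites nearly empty in the vector library. On chromosome 13, 57777101 to 57777467 showed 14 RAS and 0 vector tags, at least 4.50-fold higher than a floor of 3 tags in the vector library, with 3.20 as the exact lower 95% limit of the ratio. On chromosome 4, 113415198 to 113415564 showed 13 RAS and 0 vector tags, at least 4.17-fold higher than the same floor, with a lower limit of 2.94. No peak of chromosome 18 had 0 vector tags. The peak caller puts 0.5 in place of 0 in the vector library, so the deposited fold that ranks such peaks first depends on that stand-in.

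The next in order had 1 vector tag, or 2 in a single case. On chromosome 4, those at 136324615 to 136324981 and at 168539984 to 168540350 both had 22 RAS tags and 1 vector tag, with an exact 95% counting interval of the ratio of 3.43 to 875. Those lower limits were above that of either peak with 0 vector tags on the 2 chromosomes, so the fold as deposited does not rank the sites by how firmly their ratio is set. On chromosome 13, 99505258 to 99505624 had 19 RAS and 1 vector tag (2.91 to 761), and 31533492 to 31533858 had 16 and 1 (2.39 to 646). On chromosome 18, the peak at 11122375 to 11122741 had 17 and 1 (2.57 to 685), the peak at 6372851 to 6373217 had 16 and 1 (2.39 to 646), and the peak at 7265281 to 7265647 had 19 and 2 (2.21 to 81.0). The last places on chromosomes 13 and 18 were tied and given to the lower position. On chromosome 13 the peak at 103758598 equalled the named one with 16 and 1 tags. On chromosome 18 the peak at 59289148 did so with 19 and 2. None of these intervals allows for the choice of the peaks by their fold.

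The peaks with the most RAS tags also carried many vector tags. Chromosome 4 had its highest at 27951353 to 27951719, with 35 RAS and 8 vector tags (ratio interval 1.92 to 10.5). It was followed by 119089105 to 119089471, with 31 and 6 (2.05 to 14.6), and 105529759 to 105530125, with 31 and 7 (1.84 to 11.5). On chromosome 18 they were 57815295 to 57815661, with 30 and 5 (2.22 to 19.1), 65084135 to 65084501, with 29 and 6 (1.90 to 13.7), and 10583446 to 10583812, with 27 and 6 (1.75 to 12.8). All 3 lay over backgrounds of 4.09 to 6.17 tags per peak width.

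On chromosome 13 the peak at 31520784 to 31521150 had 29 RAS and 5 vector tags (2.14 to 18.5). It lay 12708 bp from the start of the peak with 16 RAS tags and 1 vector tag named above, so a site with many tags and one nearly empty in vector were neighbours there. The peak at 72970290 to 72970656 had 29 and 6 tags (1.90 to 13.7), and that at 97365892 to 97366258 had 28 and 6 (1.83 to 13.3). The vector tags of these 9 peaks, 5 to 8, were all above the median of 4.

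The focus ratio, which nears 1 when tags flank the centre as those of a narrow binding site do, did not set these chromosomes apart. Its mean was 0.733 ± 0.074 (SD) on the 3 chromosomes and 0.734 ± 0.079 on the other autosomes, and the median was 0.731 in both. Chromosome 4 had a mean of 0.736, chromosome 13 of 0.731 and chromosome 18 of 0.729, which ranked 9th, 11th and 18th of 22. A focus ratio of 0.8 or more was found at 59 of the 306 peaks (19.3%, Wilson 95% interval 15.3% to 24.1%) and at 22.7% of the others (20.9% to 24.7%). Across the 306 peaks the focus ratio had a Spearman's rho of 0.08 with RAS tags and 0.02 with local background, which share the RAS library.

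The most focused peaks were 15972137 to 15972503 on chromosome 4, with a focus ratio of 0.947 at 18 RAS and 4 vector tags, and 13547533 to 13547899, with 0.929 at 25 and 5 tags. The latter is also the peak of chromosome 4 with the local fold of 11.75 in the authors' deposited table. On chromosome 13 they were 70080324 to 70080690 (0.905, 19 and 3 tags) and 73271946 to 73272312 (0.880, 18 and 3 tags). On chromosome 18 they were 65084135 to 65084501 (0.886), with its 29 and 6 tags, and 20700455 to 20700821 (0.885, 20 and 4 tags). High focus thus occurred at peaks of very different tag counts.

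At the other end, the peak at 181790084 to 181790450 on chromosome 4 had a focus ratio of 0.537, the lowest of the 306, at 22 RAS and 3 vector tags. The peak at 109931374 to 109931740 had 0.562. Chromosome 13 had its lowest at 49949074 to 49949440 (0.571) and 23263665 to 23264031 (0.590). Chromosome 18 had its lowest at 60727871 to 60728237 (0.550) and at 11122375 to 11122741 (0.552). The last of these is the peak with the highest fold on chromosome 18, so on that chromosome the largest fold belonged to a site whose tags were among the least centred.

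Neighbouring peaks lay about as far apart as on the other autosomes. The median distance between starts was 714 kb on chromosome 4 (155 pairs), 705 kb on chromosome 13 (81 pairs) and 730 kb on chromosome 18 (67 pairs). Over the 3 chromosomes it was 724 kb (quartiles 362 and 1594 kb), against 799 kb on the others (307 and 1592 kb). When only the 31 peaks of 8-fold and above were kept it was 7895 kb, against 6273 kb on the others. The SD of the distances divided by their mean was 1.00, 1.10 and 1.16 on chromosomes 4, 13 and 18, and from 0.815 to 2.13 on the other autosomes. Peaks with a neighbour within 100 kb made up 17.6% (54 of 306, Wilson 95% interval 13.8% to 22.3%) and 17.2% (15.6% to 18.999%).

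At short range the shares of the 3 chromosomes lay apart, with intervals that overlapped. On chromosome 13, 21 of 82 peaks had a neighbour within 100 kb (25.6%, Wilson 95% interval 17.4% to 36.0%), the second highest share of 22. On chromosome 18 it was 6 of 68 (8.82%, 4.11% to 17.9%), and on chromosome 4 it was 27 of 156 (17.3%, 12.2% to 24.0%). Chromosome 18 was also the autosome with the lowest share of peaks more than 1 Mb from any other, 8.82% (4.11% to 17.9%), against 18.8% on the other autosomes. That share counts the nearer neighbour on either side. Distances to the next peak above 3 Mb were 6 of 67 on chromosome 18 and 171 of 1895 on the other autosomes. Peaks more than 1 Mb from any other made up 21.2% on chromosome 4 and 19.5% on chromosome 13. Differences between the 3 chromosomes were not tested. Within 100 kb the interval for chromosome 18 still reached the share of chromosome 4 and the interval for chromosome 13. Shares with a neighbour within 100 kb count both peaks of a pair, so their intervals may be wider than stated.

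The closest pair was on chromosome 13, at 55229498 to 55229864 and 55232101 to 55232467, with 2603 bp between the starts. The peaks had 17 and 20 RAS tags and 4 vector tags each. On chromosome 4 the closest pair started 6186 bp apart, at 138885368 to 138885734 with 20 RAS and 2 vector tags and at 138891554 to 138891920 with 21 and 5. Chromosome 4 had 2 further pairs within 10 kb, and one of them included the peak with 31 RAS and 6 vector tags at 119089105. On chromosome 18 the closest peaks started 56007 bp apart, at 65028128 to 65028494 with 22 and 5 tags and at 65084135 to 65084501, and no pair there lay within 10 kb. Neighbours could differ in tags, as the peak at 119089105 had 31 RAS tags and its neighbour at 119099096 had 19.

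**Figure D4:**
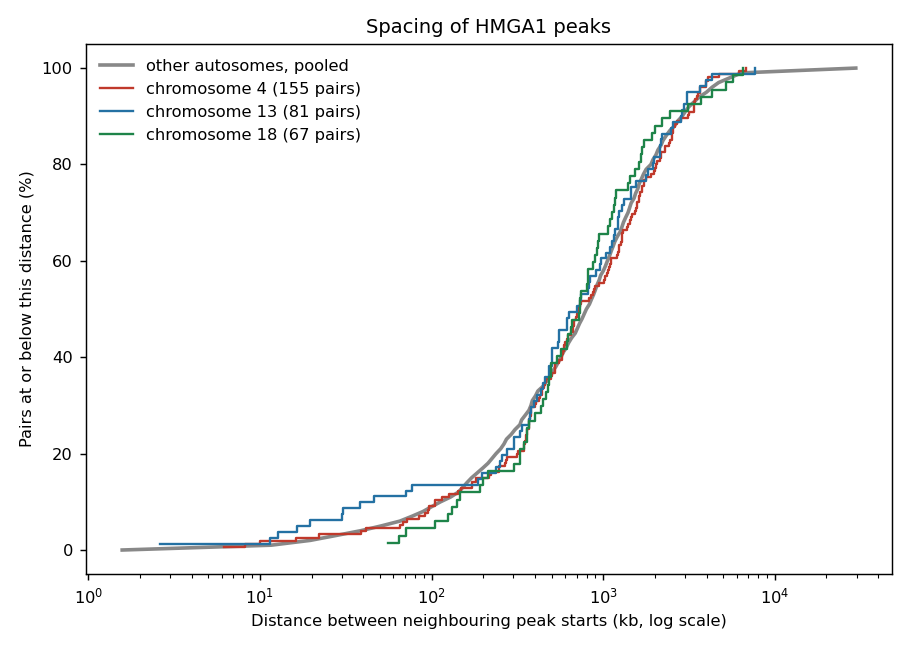
Cumulative share of neighbouring pairs against the distance between their starts (log axis) for chromosomes 4, 13 and 18 and for the other autosomes pooled. The curves meet near their medians of 705 to 799 kb, and below 100 kb chromosome 13 runs above and chromosome 18 below the grey line.

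The longest stretches without a listed peak were of like length. On chromosome 4 it ran from the peak at 29045542 to 29045908 (22 RAS and 5 vector tags) to that at 35876591 to 35876957 (20 and 4), 6.83 Mb between starts. On chromosome 13 it ran from 62385107 to 62385473 (19 and 4) to 70080324 to 70080690, 7.70 Mb between starts. On chromosome 18 it ran from 13750191 to 13750557 (21 and 3) to 20237425 to 20237791 (20 and 3), 6.49 Mb between starts. The longest on the other autosomes was 29.6 Mb. The peaks at the edges of these stretches had 19 to 22 RAS tags, close to the mean of 20.1 for the 3 chromosomes. Centromeres and assembly gaps of hg19 were not used here, so what lies in the stretches was not examined. The first listed peak on chromosome 13 started at 21577887, whereas those on chromosomes 4 and 18 started at 183335 and 818041.

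Along their length, the 3 chromosomes had listed peaks in every decile (10%) of the span. On chromosome 4 the fullest decile was the sixth, with 26 peaks or 1.37 per Mb (exact 95% Poisson interval 0.898 to 2.01), and the next one was the thinnest, with 9 or 0.476 per Mb (0.218 to 0.903). Chromosome 13 was fullest in its ninth decile, with 16 peaks or 1.74 per Mb (0.997 to 2.83), and thinnest in the sixth, with 4 or 0.436 (0.119 to 1.12). Chromosome 18 was fullest in the seventh, with 13 peaks or 1.71 per Mb (0.910 to 2.92), and thinnest in the sixth, with 3 or 0.394 (0.0813 to 1.15). The fullest deciles fell at different places on the 3 chromosomes. They were picked as the fullest of 10, which the intervals do not allow for.

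The fullest windows of 1 Mb on these chromosomes, picked after their values were seen, held 4 peaks. They were 105 to 106 Mb and 109 to 110 Mb on chromosome 4, 103 to 104 Mb on chromosome 13 and 65 to 66 Mb on chromosome 18. Of 360 windows on the 3 chromosomes, these 4 were 1.11%, and windows of 4 or more were 1.05% on the other autosomes. The window at 105 Mb summed to 94 RAS and 20 vector tags, that at 109 Mb to 77 and 15, that on chromosome 13 to 64 and 10, and that on chromosome 18 to 92 and 20. Both windows of chromosome 4 lie between 105 and 110 Mb, a stretch with 10 peaks, 207 RAS tags and 39 vector tags. On the other autosomes the fullest window of 1 Mb held 6 peaks and the fullest of 5 Mb held 11. Windows of 1 Mb without a peak made up 41.9% on the 3 chromosomes and 46.7% on the others.

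Background at the ends of the span was lower than between them on the other autosomes, and on these chromosomes the 2 ends differed from each other. On the 3 chromosomes, the 70 peaks in the first and last decile had a mean local background of 4.03 ± 0.86, and the 236 peaks between them 4.07 ± 0.90. On the other autosomes the values were 3.73 ± 0.84 (436 peaks) and 3.96 ± 0.88 (1478 peaks). The first and last decile had means of 3.82 and 4.19 on the 3 chromosomes, and of 3.80 and 3.65 on the others. On chromosome 4 they were 3.58 ± 0.92 (15 peaks) and 4.46 ± 0.76 (22 peaks), the lowest and the highest of its deciles. Chromosome 13 had 4.02 and 3.85, and chromosome 18 had 4.09 and 3.85, so of the 3 only chromosome 4 had the higher mean in its last decile. RAS tags of the outer and inner peaks lay close on the 3 chromosomes, at 20.04 ± 3.61 and 20.1 ± 3.59. On the other autosomes the outer peaks had fewer, 19.03 ± 3.53 against 19.6 ± 3.61, as they had a lower background. On chromosome 4 the first and last decile had means of 19.9 and 21.3 RAS tags. Background along the span was not matched on RAS tags. The outer deciles held 22.9% of peaks on the 3 chromosomes and 22.8% on the others. The gap between inner and outer background was within 1 SD over peaks in both sets, and its difference between them was not tested.

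**Figure D5:**
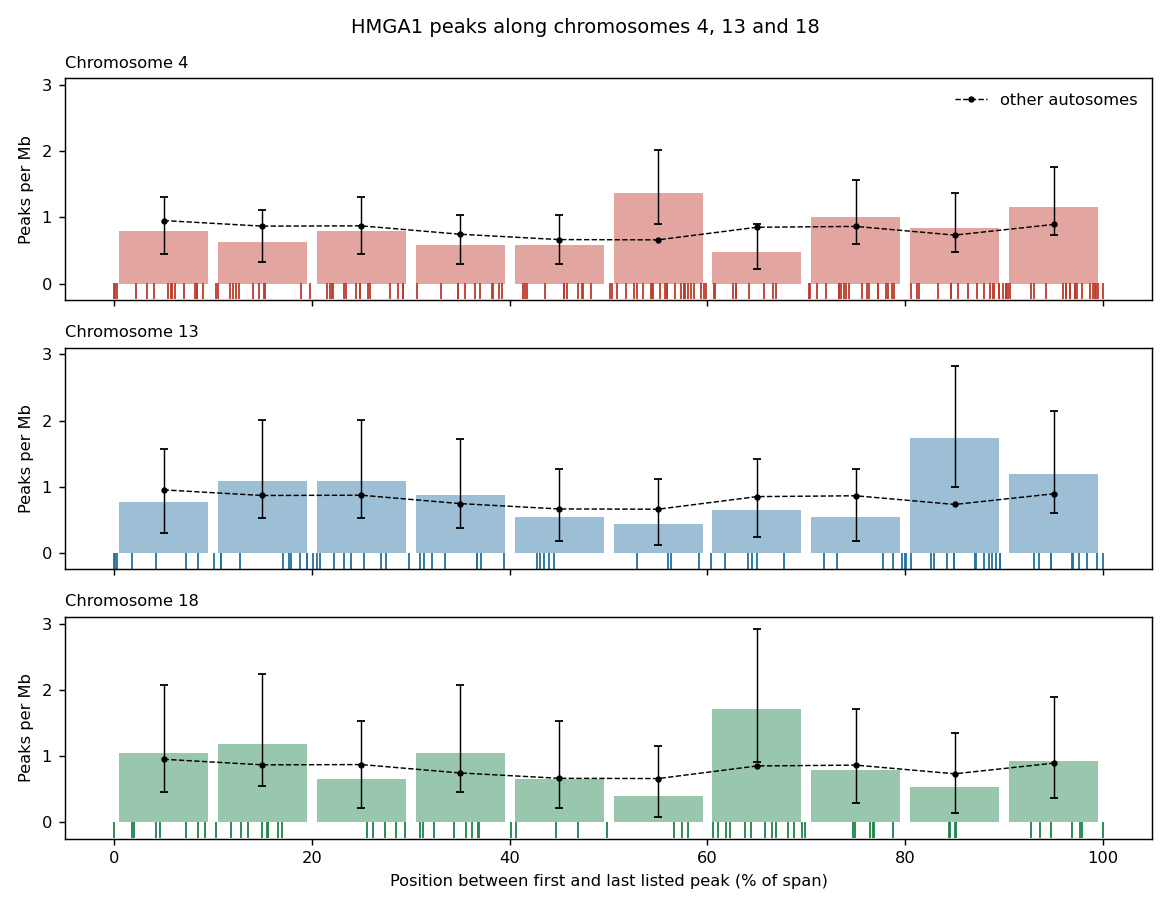
Listed peaks per Mb (bars, with exact 95% Poisson intervals) in deciles of the span of chromosomes 4, 13 and 18, with a tick per peak below and the other autosomes pooled as a dashed line. The highest bars are the sixth decile on chromosome 4 (1.37), the ninth on chromosome 13 (1.74) and the seventh on chromosome 18 (1.71).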

How the data were processed

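The members, measures and comparisons were chosen with earlier results of these data known. The submitters' processing notes name hg19, HOMER and Bowtie 0.12.9, per the labels. The sources used here give neither HOMER's version and settings nor an input library. Per the file headers, the deposited peak list held scaled tag counts (tags per 10000000, a normalized value), RAS tags scaled to the vector depth and vector tags (signal), a focus ratio (fraction), a findPeaks score, folds over vector, over the surroundings and for clonal tags (ratio), and p-values. The 1 library per group was not pooled.

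Whole RAS tags were recovered from steps of 0.282 per 10000000 tags, and 99.7% of values were whole within 0.1 tag. Vector tags given as 0.5 were read as 0. Ratio intervals were exact (Clopper-Pearson, conditional on total tags, 95%), rates had exact Poisson and shares Wilson intervals, and a floor of 3 tags per library stood for 0. Tag recovery was checked on values rebuilt from the recovered tags and step, which shows only that rounding did not change them. Ratio intervals were tested on simulated counts, and rate intervals by summing over all outcomes. Wilson intervals were not tested.

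By rule, the peaks named on each of the 3 chromosomes were the 3 with the highest fold, the 3 with the most RAS tags, the 2 with the highest and the 2 with the lowest focus ratio, the closest pair and the edges of the longest stretch without a peak, with ties settled by tags or fold and then by lower position. This gave 38 peaks. Alternatives were a fold of at least 8, a p-value of at most 1e-10, at least 20 RAS tags, merging within 10 kb, leaving out chromosomes, equal weight per chromosome and strata of equal RAS tags. No hg19 sequence or annotation was used here, so peaks are given by position, with no gene. Python 3.11.15, numpy 2.4.6, pandas 2.3.3, scipy 1.17.1 and matplotlib 3.10.9 were used.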

Additional observations from a re-analysis of the deposited data

How the results depend on the processing

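Differences are the 3 chromosomes minus the other autosomes. The number of peaks was 31 at a fold of at least 8, 50 at a p-value of at most 1e-10, 152 with at least 20 RAS tags and 150 without chromosome 4, and the share of autosomal peaks was 11.5% at the fold limit, 16.1% with 20 tags, and 7.27%, 10.5% and 11.1% without chromosomes 4, 13 and 18. The difference in median RAS tags, 0, was 1 at the fold limit, without chromosome 13 and without chromosome 18, and 0.94 with equal weight per chromosome. The mean, added after seeing the data, differed by 0.57 tags, by 0.0440 at the p-value limit and by -0.0683 with 20 tags. Mean vector tags differed by -0.00337 at the fold limit, median fold by -0.32 at the p-value limit and -0.24 without chromosome 13, mean focus ratio by -0.012 at the p-value limit, and median local background by 0.0393 within strata of equal RAS tags. Median spacing differed by 1622 kb at the fold limit and -714 kb at the p-value limit, where 31 and 50 peaks were left. The other 93 of 115 values stayed within 1.5 times for counts and, for the rest, moved by less than a 95% interval over peaks reaches to either side. The smaller listed share, taken of the lower bound on candidates, differed by -0.39 percentage points. Its sign was kept under the 5 alternatives run for it, and that of the higher local background under 10. The candidate share, added after seeing the data, was run only with other sets of chromosomes and at a score of 20, and strata of equal RAS tags only for vector tags, focus ratio and local background. Combinations planned and not run were the share with a fold of 8 under that same limit, and the peak count with another set of autosomes or, like the peak share, with equal weight. No paired analysis was possible because RAS and vector cells gave a single library apiece, which also leaves no replicate to omit. Depth limits single peaks: only 43 of 306 had a lower ratio limit of 2 or more.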
